A study of Homo sapiens with 18 samples.

Results

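The STEAP metalloreductase family was examined by RNA Seq in LNCaP and C4-2 prostate cancer cells. Its 5 members, STEAP1, STEAP1B, STEAP2, STEAP3 and STEAP4, were taken by gene symbol from the 60675 genes listed. The proteins are named as epithelial antigens of the prostate and span the membrane several times. Family members carry electrons from NADPH and a flavin to a heme in the membrane, and from there to ferric iron or cupric copper, which can then be taken into the cell. STEAP2, STEAP3 and STEAP4 hold their own NADPH-binding domain, whereas STEAP1 lacks it and can share electrons within mixed trimers. STEAP1 and STEAP2 are known for high levels in prostate epithelium, STEAP3 as the endosomal ferrireductase of the transferrin cycle, and STEAP4 as an androgen-responsive gene of prostate cells.

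LNCaP is an androgen-dependent line that holds the androgen receptor, and C4-2 was derived from it and no longer depends on androgen. Each line gave 9 libraries in 3 groups of 3. Cells received scrambled siRNA (siScr) with vehicle, siScr with the androgen derivative R1881 (1 nm, 72 h), or siRNA pools against both histone demethylases KDM1A and KDM7A (dual knockdown) with R1881 (1 nm, 72 h). Per the labels, cells of every group were transfected and grown without phenol red in charcoal-stripped serum, whereas the study's methods give hormone depleted dialysed serum for culture with R1881. No group had 1 demethylase depleted alone. The labels say only vehicle, and the study's methods give DMSO in the part on RNA Seq and ethanol in the part on R1881 culture. The 3 C4-2 vehicle libraries have C4-2 in their titles and LNCaP in the cell line field, and were grouped by their titles. Both lines are single established lines, and the labels do not say whether the replicates of a group came from separate cultures, so p-values measure the spread between these libraries.

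Total counts were 3182604 to 20154243 per library. All 10 luminal prostate markers were above 1 CPM (counts scaled to equal library size, after TMM) on average in every group, and the lists for basal, stromal, blood and endothelial, and neuroendocrine cells summed to 0.583 to 37.3 CPM per library. With the dual knockdown, KDM1A had log2FC values of -1.05 (LNCaP) and -3.12 (C4-2), and KDM7A of -0.93 and -2.51. The knockdown was thus deeper in C4-2. The interaction was -2.04 for the former (adjusted p = 2.4e-09) and -1.56 for the latter (adjusted p = 6.1e-07). The androgen-induced KLK3, TMPRSS2 and FKBP5 rose with R1881 by 3.7, 4.13 and 4.24 in LNCaP, and by 4.16, 3.11 and 3.26 in C4-2. The shallowest library of each line, LNCaP siScr vehicle replicate 1 (10485096 counts) and C4-2 siScr vehicle replicate 3 (3182604 counts), stood apart. Processed pseudogenes held 0.663% and 1.18% of their counts, against 0.189% to 0.261% in the other 16 libraries. C4-2 dual knockdown replicate 1 (19732350 counts) also differed from its group, with a chi-square per gene of 15.3 and 13.5 against replicates 2 and 3, which differed by 3.29 from each other.

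STEAP1, STEAP2 and STEAP4 lie on chromosome 7q of GRCh38, at chr7:90154375-90164829 (STEAP1, + strand), chr7:90167590-90238137 (STEAP2, + strand) and chr7:88270892-88306891 (STEAP4, - strand). STEAP1B lies on the short arm at chr7:22419444-22632925 (- strand), and STEAP3 at chr2:119223831-119265652 (+ strand). STEAP1 and STEAP1B are near-identical copies. Over the coding parts of their exons 2, 3 and 4 in GENCODE 29, 762 bases each, they differed at 14 bases (98.2% identity), with a longest identical run of 149 bases. Exon 4 of both genes is shown because it holds the fewest differences, 1 in 165 bases. The base that differs is in capitals, at chr7:90161914-90162078 (+ strand) for STEAP1 and chr7:22492565-22492729 (- strand) for STEAP1B.
STEAP1: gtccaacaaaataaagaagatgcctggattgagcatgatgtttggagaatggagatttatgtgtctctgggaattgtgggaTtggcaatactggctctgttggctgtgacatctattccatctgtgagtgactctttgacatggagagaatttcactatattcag
STEAP1B: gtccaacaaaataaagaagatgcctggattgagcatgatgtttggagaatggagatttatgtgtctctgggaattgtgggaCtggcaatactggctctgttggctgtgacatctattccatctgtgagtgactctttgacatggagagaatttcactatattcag
Reads that fit both copies equally cannot be assigned to either. Reads were 150 bases long before trimming, and exon parts outside these were not compared. How far such reads affect the levels of STEAP1B was not tested.

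Per length, STEAP1 and STEAP2 made up most of the family in all 6 groups. Levels between genes were compared as FPKM, here CPM per kilobase of annotated exons, whose lengths ran from 1625 bases for STEAP1 to 11245 bases for STEAP4. That length joins all annotated exons of a gene (8715 bases for STEAP2), and the order below depends on it. Which transcripts were expressed was not tested. By CPM, STEAP2 was above STEAP1 in all 6 groups, with means of 977 against 304 CPM in C4-2 with R1881. In LNCaP with vehicle, STEAP1 was at 174 ± 16.3 FPKM (SD, n = 3) and STEAP2 at 144 ± 13.0 FPKM, and their libraries overlapped. They were followed by STEAP3 at 2.30 ± 0.43 FPKM, STEAP1B at 1.05 ± 1.71 FPKM and STEAP4 at 0.0067 ± 0.0063 FPKM. STEAP3 and STEAP1B libraries also overlapped. STEAP1B was at 3.02 FPKM in replicate 1, which stood apart, and at 0.10 and 0.024 FPKM in replicates 2 and 3. With R1881, the order in LNCaP was STEAP1 (233 ± 16.9 FPKM), STEAP2 (138 ± 4.16 FPKM), STEAP4 (5.47 ± 0.496 FPKM), STEAP3 (1.99 ± 0.271 FPKM) and STEAP1B (0.093 ± 0.042 FPKM), and no neighbours in that order overlapped. STEAP4 thus moved from the lowest place to the middle of the family.

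In C4-2 with vehicle, STEAP2 (96.5 ± 5.73 FPKM) and STEAP1 (92.2 ± 15.7 FPKM) again overlapped. STEAP3 stood at 11.9 ± 0.293 FPKM, STEAP1B at 2.43 ± 3.46 FPKM and STEAP4 at 0.015 ± 0.013 FPKM. The STEAP1B mean rested on replicate 3 (6.42 FPKM), which stood apart, against 0.514 and 0.346 FPKM in replicates 1 and 2. With R1881, STEAP1 (187 ± 21.5 FPKM) was above STEAP2 (112 ± 2.18 FPKM) in every library, and STEAP3 (6.11 ± 0.594 FPKM) stayed above STEAP4 (1.11 ± 0.179 FPKM). STEAP1B was then lowest, at 0.419 ± 0.164 FPKM. In both lines the order with the dual knockdown matched that of siScr with R1881, and neighbours did not overlap.

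**Figure D1:**
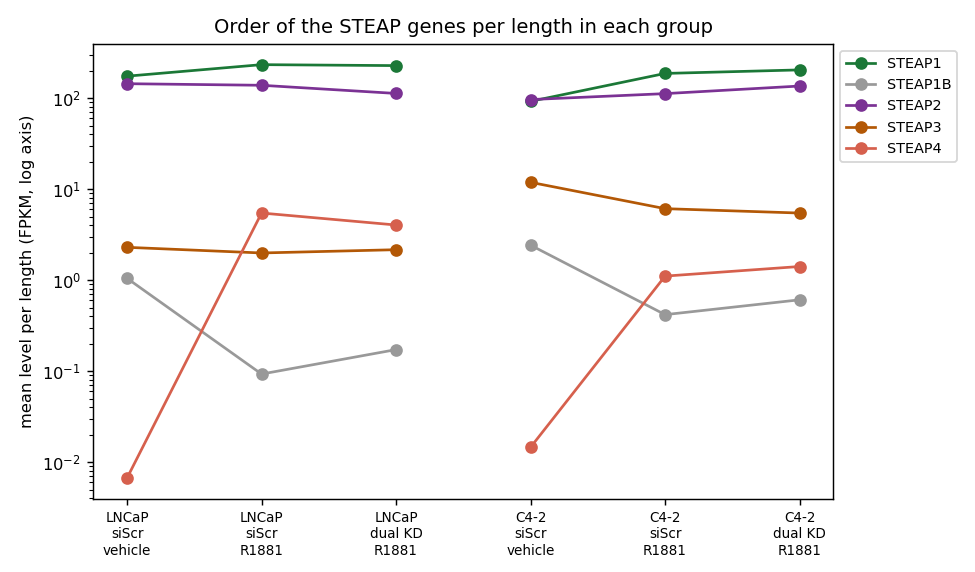
Mean level per length of the 5 STEAP genes (FPKM, log axis) in the 3 groups of LNCaP (left) and of C4-2 (right), with lines joining groups of 1 line. STEAP1 and STEAP2 are at the top throughout, and STEAP4 climbs from 0.0067 to 5.47 FPKM with R1881 in LNCaP and from 0.015 to 1.11 FPKM in C4-2.

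The first comparison asked which members respond to androgen. STEAP4 and STEAP1 rose with R1881 in both lines, and STEAP3 fell in C4-2. In LNCaP, 4 members were tested after the filter on low counts, which removed STEAP1B, and 2 were higher and none lower with edgeR's quasi-likelihood test and Benjamini-Hochberg adjustment (adjusted p under 0.05). Of all 17162 genes tested in LNCaP, 23.5% were higher and 23.2% lower, and 12.3% passed with a change of at least 2-fold, as STEAP4 did. In C4-2, all 5 members were tested, with 2 higher and 1 lower, where 17.1% of 16965 genes were higher and 15.7% lower. Only STEAP4 passed with at least a 2-fold change there, against 9.07% of all genes.

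STEAP4 was close to undetected without androgen. Its counts in LNCaP with vehicle were 1, 3 and 0 in replicates 1, 2 and 3, and with R1881 they were 1070, 928 and 1011. In CPM, the R1881 libraries held 58.5, 68.0 and 58.1 and the vehicle libraries at most 0.139. From the summed counts, 3009 against 4, the level was 780 times higher with R1881 (95% exact interval 305 to 2866, counting error only). The fitted log2FC of 9.48 passed the test (adjusted p = 5.6e-16). Its size depends on the prior count because a vehicle library held 0 counts. The SE of 0.21, derived from the test statistic, gives a 95% interval of 9.03 to 9.92. On the same scale that is narrower than the exact interval above, so this SE is too small for so few counts.

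In C4-2, STEAP4 counts were 4, 5 and 0 with vehicle and 214, 194 and 241 with R1881. The R1881 libraries stood at 11.8, 10.9 and 14.7 CPM, far above the vehicle libraries, which reached at most 0.286 CPM. The summed counts, 649 against 9, gave a ratio of 55.4 (95% exact interval 29 to 122). The fitted log2FC was 5.76 (SE 0.27, adjusted p = 7.7e-10). Its 95% interval from that SE, 5.17 to 6.34, is likewise narrower than the exact interval on the same scale. In both lines STEAP4 passed the filter on low counts through its libraries with R1881, where it is higher. Its p-values for R1881, and for the difference between the lines in that response, are therefore not those of an unselected gene. The same holds for its place among the members counted as higher or at 2-fold with R1881. No vehicle library of either line exceeded 5 counts of STEAP4, so its vehicle level is known only within counting error.

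STEAP1, which lacks the NADPH-binding domain, rose less. In LNCaP its level was 254, 306 and 290 CPM with vehicle and 352, 407 and 379 CPM with R1881. All R1881 libraries were above all vehicle libraries, with a log2FC of 0.40 (SE 0.07, adjusted p = 1.2e-04). In C4-2 it was 165, 164 and 120 CPM with vehicle and 341, 271 and 299 CPM with R1881. The log2FC in C4-2 was 1.00 (SE 0.11, adjusted p = 7.5e-06), just under the 2-fold limit. The lowest vehicle value, 120 CPM, came from the library that stood apart, and without both such libraries the log2FC was 0.88 in C4-2 and 0.34 in LNCaP.

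STEAP2, the most abundant member by CPM, did not pass the test in either line. Its libraries in LNCaP were at 1263, 1366 and 1140 CPM with vehicle and 1171, 1243 and 1207 CPM with R1881, and overlapped (log2FC -0.08, 95% interval -0.21 to 0.05, adjusted p = 0.34). In C4-2 they were at 783, 872 and 867 CPM with vehicle and 983, 956 and 993 CPM with R1881. The C4-2 groups did not overlap, and the log2FC of 0.21 (95% interval 0.02 to 0.40) had an adjusted p of 0.079. It passed with DESeq2's Wald test (adjusted p = 0.035), without the filter (adjusted p = 0.045), with only the 6 libraries compared (adjusted p = 0.028) and without C4-2 dual knockdown replicate 1 (adjusted p = 0.014).

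STEAP3, the endosomal ferrireductase, fell in C4-2. Its level was 52.7, 55.3 and 54.8 CPM with vehicle and 27.0, 30.9 and 25.7 CPM with R1881, and the groups stood well apart. The log2FC was -0.96 (SE 0.10, adjusted p = 2.4e-06). In LNCaP it was 8.31, 11 and 12.1 CPM with vehicle and 10.3, 9.15 and 7.81 CPM with R1881, with overlapping libraries (log2FC -0.24, 95% interval -0.54 to 0.07, adjusted p = 0.19). Without LNCaP siScr vehicle replicate 1 the value was -0.35 and passed the test (adjusted p = 0.045).

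**Figure D2:**
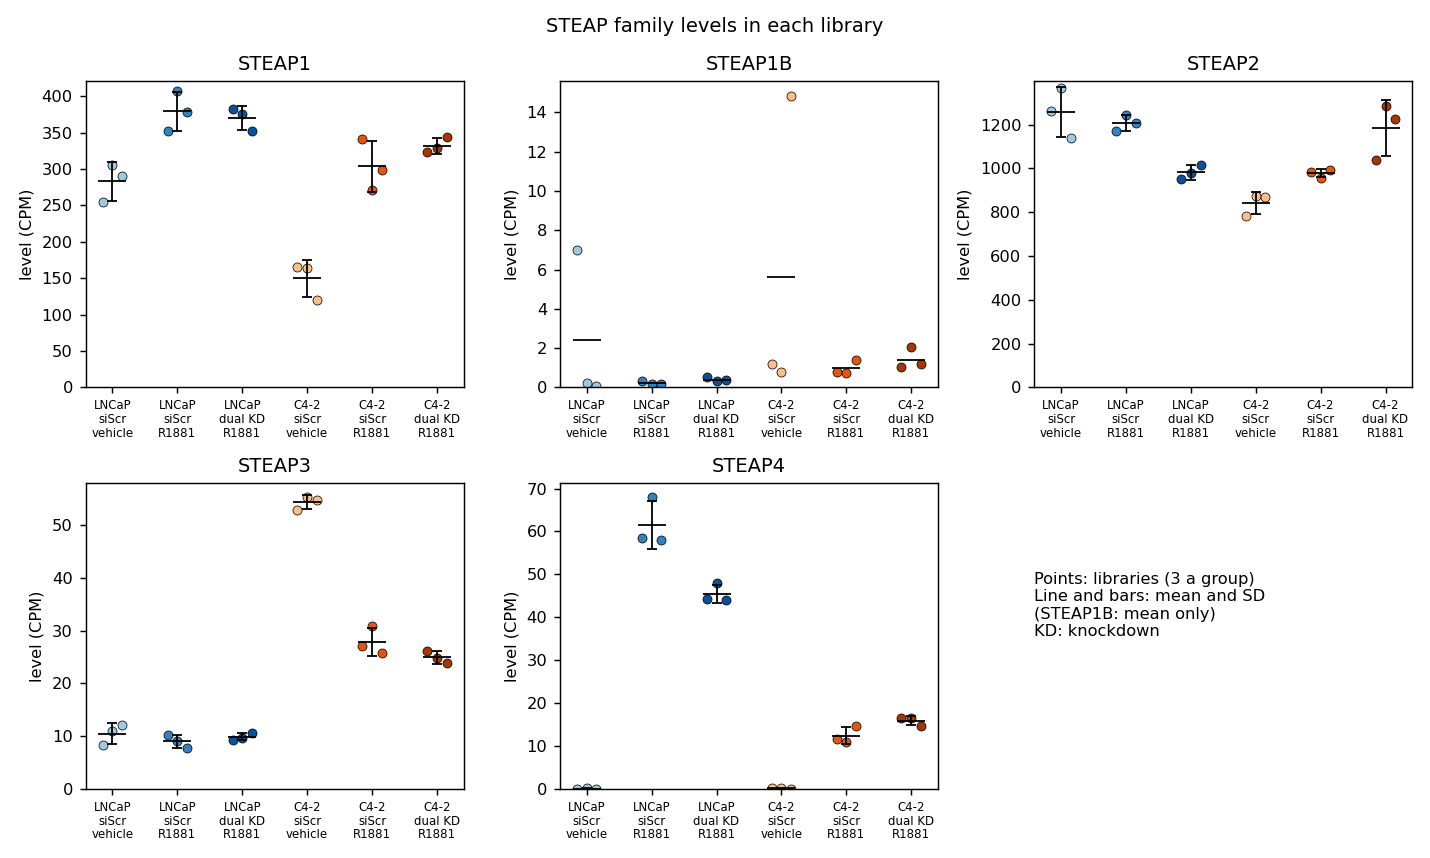
Level of each STEAP gene (CPM, linear axes from 0) in the 18 libraries, by line, siRNA and treatment, with points for libraries and lines and bars for the mean and SD (mean only for STEAP1B). STEAP4 reached 58.1 to 68.0 CPM with R1881 in LNCaP and 10.9 to 14.7 CPM in C4-2, STEAP3 was 52.7 to 55.3 CPM in C4-2 with vehicle, and STEAP1B was high in 1 vehicle library of each line.

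STEAP1B was detected at few counts. With vehicle it had 80, 5 and 1 counts in LNCaP and 23, 14 and 51 in C4-2. Its 7.0 CPM in LNCaP replicate 1 and 14.9 CPM in C4-2 replicate 3 were the values of the same 2 libraries that were high in processed pseudogenes, and the other 16 libraries ranged from 0.055 to 2.03 CPM. As a share of STEAP1 and STEAP1B counts together, STEAP1B was 2.68% (95% Wilson interval 2.16% to 3.32%) and 11% (8.46% to 14.2%) in those 2 libraries, and 0.019% to 0.716% in the others. EEF1A1P6, a processed pseudogene of the elongation factor EEF1A1 within the span of STEAP1B, had 4574 and 2152 counts there, against 31 to 91 counts elsewhere. The log2FC of STEAP1B with R1881 in C4-2, -2.10 (SE 0.87, adjusted p = 0.079), was -0.06 (adjusted p = 0.93) without both libraries. It passed without C4-2 siScr vehicle replicate 1 (-2.74, adjusted p = 0.025) or 2 (-2.79, adjusted p = 0.016), which left the library with 51 counts in place, and without the filter (-2.15, adjusted p = 7.8e-07). The part of near-identical copies in these values was not tested.

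**Figure D3:**
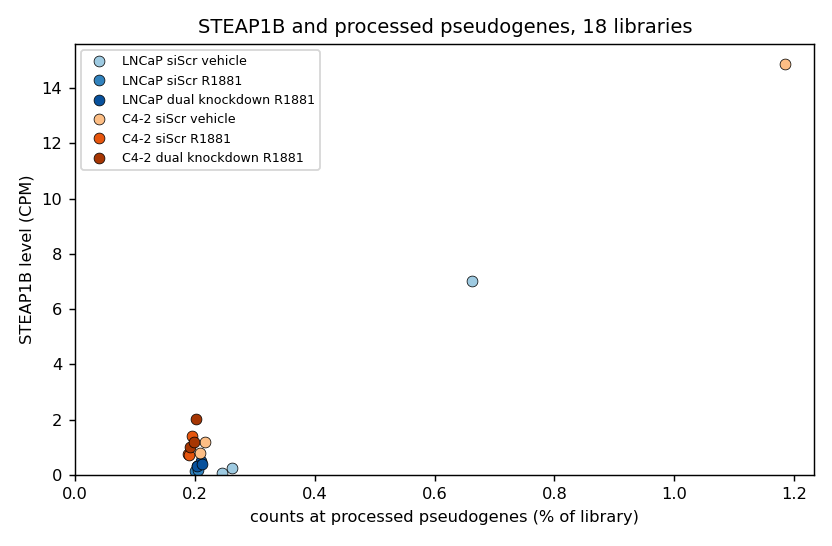
STEAP1B level (CPM, vertical) against the percent of each library's counts at processed pseudogenes (horizontal), 1 point per library, coloured by group. LNCaP siScr vehicle replicate 1 (0.663%, 7.0 CPM) and C4-2 siScr vehicle replicate 3 (1.18%, 14.9 CPM) lie away from the other 16 libraries.

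The 250 bases before the annotated start of STEAP4 are shown because this member changed most with R1881. They come from RefSeq (GRCh38.p14, chr7:88306895-88307144, - strand, read 5′ to 3′).
STEAP4: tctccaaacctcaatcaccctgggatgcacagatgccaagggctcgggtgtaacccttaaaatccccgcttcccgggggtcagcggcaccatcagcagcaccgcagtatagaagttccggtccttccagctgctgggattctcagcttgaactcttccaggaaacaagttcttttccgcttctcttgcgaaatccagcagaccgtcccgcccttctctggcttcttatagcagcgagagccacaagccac
Windows from 250 bases before to 50 after the start were searched on both strands for the androgen response half-site AGAACA, which reads TGTTCT on the other strand, and for the full site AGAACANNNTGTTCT, which contains it. No half-site was found in the 6 windows of the 5 members, 2 of them for STEAP2, so no base is in capitals. Of 35116 promoters, 14.8% held a half-site and 1 held the full site. These letters are absent from these windows, which says nothing of sites farther away.

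The second comparison asked what depletion of KDM1A and KDM7A does to the members in the presence of R1881. STEAP2 and STEAP4 fell slightly in LNCaP, and STEAP2 rose slightly in C4-2. In LNCaP, 2 of 4 members tested were lower and none higher, where 5.89% of all genes tested were lower, 8.27% higher, and 0.286% passed with at least a 2-fold change. In C4-2, 1 of 5 members was higher and none lower, where 12.7% of genes were higher, 10.8% lower, and 3.94% passed with at least a 2-fold change. These shares of all genes moved when 1 library was left out. That also leaves fewer replicates in a group, and the part of each was not tested. In LNCaP, the 2431 genes called fell to 839 and 957 without siScr R1881 replicates 2 and 3, and to 918 and 840 without dual knockdown replicates 1 and 2. In C4-2, the 3983 genes called fell to 2482 without siScr R1881 replicate 3. No member reached 2-fold in either line. The siScr R1881 libraries are shared with the R1881 comparison above.

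STEAP4 with the dual knockdown in LNCaP was at 44.2, 47.9 and 44.1 CPM, below the 58.5, 68.0 and 58.1 CPM of siScr with R1881 in every library. The log2FC was -0.42 (SE 0.09, adjusted p = 0.0073), and the mean with the dual knockdown was 45.4 ± 2.15 CPM (SD, n = 3). In C4-2 the dual knockdown libraries were at 16.5, 16.5 and 14.7 CPM and those of siScr with R1881 at 11.8, 10.9 and 14.7 CPM. The highest siScr library and the lowest dual knockdown library met, and the log2FC of 0.35 (95% interval 0.04 to 0.66) had an adjusted p of 0.10. STEAP4 therefore stayed far above its vehicle level in every dual knockdown library of both lines.

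STEAP2 in LNCaP was at 950.04, 978 and 1017 CPM with the dual knockdown, below the lowest siScr R1881 library (1171 CPM). The log2FC was -0.28 (SE 0.06, adjusted p = 0.0089). In C4-2 it was at 1039.9, 1285 and 1227 CPM with the dual knockdown, above the highest siScr R1881 library (993 CPM), and the log2FC was 0.27 (SE 0.09, adjusted p = 0.035). Without replicate 1, 2 or 3 of siScr R1881 the C4-2 value was 0.27, 0.25 and 0.28 (adjusted p = 0.088, 0.12 and 0.092), and without replicate 2 or 3 of the dual knockdown it was 0.21 and 0.24 (adjusted p = 0.15 and 0.12), so that the call was lost with 1 library fewer. Without dual knockdown replicate 1, which differed from its group, it was 0.36 (adjusted p = 0.0018).

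STEAP1 and STEAP3 libraries overlapped between siScr and dual knockdown in both lines. STEAP1 with the dual knockdown was at 383, 375 and 352 CPM in LNCaP (log2FC -0.02, 95% interval -0.16 to 0.13, adjusted p = 0.91). It was at 323, 328 and 345 CPM in C4-2 (log2FC 0.12, 95% interval -0.11 to 0.36, adjusted p = 0.45). STEAP3 was at 9.38, 9.62 and 10.6 CPM in LNCaP (log2FC 0.14, 95% interval -0.17 to 0.44, adjusted p = 0.58) and at 26.2, 24.8 and 23.8 CPM in C4-2 (log2FC -0.17, 95% interval -0.37 to 0.04, adjusted p = 0.23). STEAP1B in C4-2 was at 1.02, 2.03 and 1.18 CPM with the dual knockdown and 0.77, 0.731 and 1.41 CPM without (log2FC 0.55, SE 0.85, adjusted p = 0.70), a difference not detectable at this depth.

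**Figure D4:**
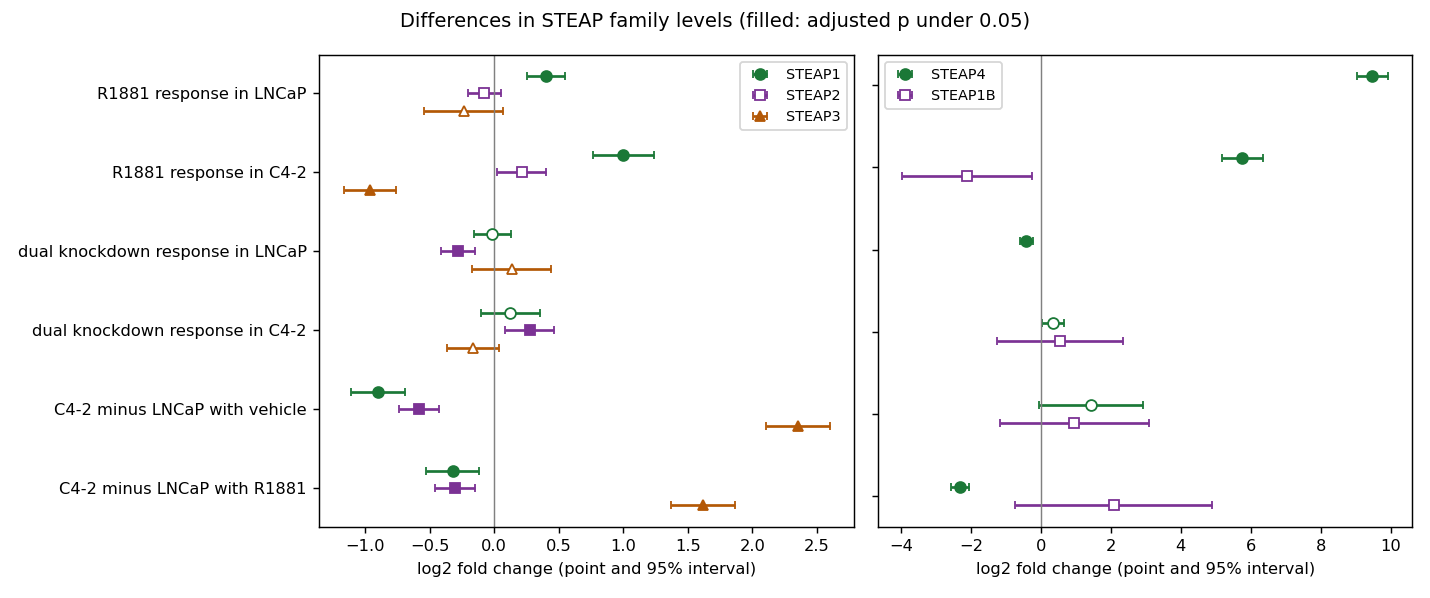
Log2 fold change with its 95% interval for STEAP1, STEAP2 and STEAP3 (left) and STEAP4 and STEAP1B (right, wider axis) in 6 comparisons, filled where the adjusted p was under 0.05. STEAP4 with R1881 (9.48 and 5.76) and STEAP3 between the lines (2.35 and 1.62) are the farthest to the right. The dual knockdown values of the members that passed lie between -0.42 and 0.27. For STEAP4 with R1881 the drawn intervals are narrower than those from counting error.

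The lines also differed without and with androgen, fitted over all 18 libraries. With vehicle, 1 of 5 members was higher in C4-2 and 2 were lower, where 29.4% of 18684 genes were higher, 29.5% lower, and 24.2% passed with at least a 2-fold change. With R1881, 1 member was higher and 3 were lower, where 28.6% of genes were higher, 29.7% lower, and 23.8% passed with at least a 2-fold change. STEAP3 was higher in C4-2 in every library, with mean levels of 54.3 ± 1.34 against 10.5 ± 1.96 CPM with vehicle (log2FC 2.35, SE 0.12, adjusted p = 3.3e-13). With R1881 it was 27.9 ± 2.71 against 9.08 ± 1.24 CPM (log2FC 1.62, SE 0.12, adjusted p = 1.6e-10).

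STEAP1 was lower in C4-2 with vehicle, at 149.9 ± 25.6 against 283 ± 26.5 CPM (log2FC -0.90, SE 0.10, adjusted p = 1.3e-07). With R1881 the gap narrowed to 304 ± 34.9 against 379 ± 27.4 CPM (log2FC -0.32, SE 0.10, adjusted p = 0.0082). That second call was lost without LNCaP siScr R1881 replicate 2 (log2FC -0.27, adjusted p = 0.052) or C4-2 siScr R1881 replicate 2 (log2FC -0.25, adjusted p = 0.074). STEAP2 was lower in C4-2 in every library with vehicle (log2FC -0.58, SE 0.08, adjusted p = 9.4e-07) and with R1881 (log2FC -0.30, SE 0.07, adjusted p = 0.0014). STEAP4 with R1881 was 12.5 ± 2.02 CPM in C4-2 and 61.5 ± 5.57 CPM in LNCaP (log2FC -2.30, SE 0.12, adjusted p = 6.2e-13). With vehicle, the STEAP4 counts of 9 and 4 over 3 libraries each gave a ratio of 2.86 (95% exact interval 0.799 to 12.7). The fitted log2FC of 1.43 (adjusted p = 0.10) was 2.47 (adjusted p = 0.047) without LNCaP siScr vehicle replicate 2, which held 3 of those 4 counts.

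STEAP1B did not pass the test between the lines over all 18 libraries (log2FC 0.96, adjusted p = 0.44 with vehicle, and 2.08, adjusted p = 0.20 with R1881). With vehicle, the log2FC was 4.78 (adjusted p = 6.5e-04) without LNCaP siScr vehicle replicate 1 and -1.10 (adjusted p = 0.30) without C4-2 siScr vehicle replicate 3. Leaving out both libraries that stood apart, STEAP1B was at 0.055 to 0.507 CPM in the remaining 8 LNCaP libraries and at 0.731 to 2.03 CPM in the remaining 8 of C4-2, with no overlap. That fit was chosen after seeing the data. In it, STEAP1B was higher in C4-2 with vehicle (log2FC 2.69, adjusted p = 9.0e-04) and with R1881 (log2FC 2.11, adjusted p = 0.0010). STEAP1B passed the filter on low counts through its C4-2 libraries, where it is higher, and that filter removed it from the LNCaP fit. These p-values are therefore not those of an unselected gene. In the same fit STEAP1 was lower in C4-2 (log2FC -0.84 with vehicle and -0.29 with R1881), and STEAP1B was 0.225% to 0.716% of the counts of both copies in C4-2 and 0.019% to 0.132% in LNCaP.

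Interaction terms asked whether each response was the same in C4-2 as in LNCaP. For R1881, 1 of 5 members had a higher and 2 a lower log2FC in C4-2, where 6.05% of genes were higher, 7.95% lower, and 4.32% passed with at least a 2-fold difference, as STEAP4 did. STEAP4 had a smaller rise in C4-2 (difference -3.73, SE 0.76, adjusted p = 0.0016), STEAP1 a larger one (difference 0.58, SE 0.14, adjusted p = 0.0071), and STEAP3 a deeper fall (difference -0.73, SE 0.17, adjusted p = 0.0042). STEAP2 differed by 0.28 (adjusted p = 0.091), and passed without LNCaP siScr vehicle replicate 3 (0.34, adjusted p = 0.041) or C4-2 dual knockdown replicate 1 (0.28, adjusted p = 0.031). With counts thinned to the smallest library, STEAP4 (-2.64, adjusted p = 0.19) and STEAP3 (-0.65, adjusted p = 0.090) no longer passed.

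For the dual knockdown, 2 of 5 members had a higher log2FC in C4-2 and none a lower one, where 6.97% of genes were higher, 3.88% lower, and 1.99% passed with at least a 2-fold difference. The 2028 genes called for this interaction became 3538 without C4-2 dual knockdown replicate 1, 1283 and 1272 without replicates 2 and 3 of that group, and 1342 without LNCaP dual knockdown replicate 2. STEAP2 differed by 0.58 (SE 0.11, adjusted p = 0.0012), falling in LNCaP and rising in C4-2, and by 0.67 (adjusted p = 4.9e-05) without C4-2 dual knockdown replicate 1. STEAP4 differed by 0.79 (SE 0.17, adjusted p = 0.0038), and did not pass when thinned (0.70, adjusted p = 0.089). STEAP1 (0.16, adjusted p = 0.52) and STEAP3 (-0.28, adjusted p = 0.32) did not pass. The deeper knockdown of KDM1A and KDM7A in C4-2 went with the line, and depth of knockdown and line cannot be told apart here.

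Antisense and overlapping genes had few counts of their own. STEAP2-AS1, whose span crosses STEAP1 and part of STEAP2 but shares none of their exon bases, had 0 to 17 counts per library and 160 in all. It passed the test only between the lines with R1881 (log2FC 1.14, adjusted p = 0.039). STEAP3-AS1 shares 500 exon bases with STEAP3 on the other strand and had 83 counts in all. STEAP3-AS1 was higher in C4-2 with vehicle (log2FC 1.74, adjusted p = 0.047) and with R1881 (1.90, adjusted p = 0.023). With vehicle the libraries of the lines overlapped, and C4-2 replicate 3 had 0 counts. STEAP3-AS1 passed the filter on low counts through C4-2 libraries and was removed from the LNCaP fit. Its p-values between the lines are therefore not those of an unselected gene. AC003991.1 shares 782 exon bases with STEAP4 and had 94 counts in all. Per the file headers, counting used no strand option, so reads of such pairs cannot be told apart where their exons overlap, and their part in the values of STEAP3 and STEAP4 was not tested.

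Genes within 500 kb of each member were followed in the first 4 comparisons. Of 9 tested neighbours of STEAP1, 5 rose and none fell with R1881 in C4-2, and 1 rose and 2 fell in LNCaP. Of all genes tested, 17.1% rose and 15.7% fell in C4-2, and 23.5% rose and 23.2% fell in LNCaP. STEAP2 had 6 of 9 higher in C4-2, STEAP1 among them. Those at 2-fold or more in C4-2 were CFAP69 (log2FC 1.80), AC002064.2 (1.43), AC002064.1 (2.28) and the tight junction gene CLDN12 (1.18). With R1881 in LNCaP, CFAP69 fell (log2FC -0.42, adjusted p = 3.1e-04) and CLDN12 rose (0.62, adjusted p = 3.0e-07). AC002064.2 and AC002064.1 did not pass there. AC002064.1 had a mean of only 0.68 CPM over the 18 libraries (SE 0.66). CLDN12 also rose with the dual knockdown in C4-2 (log2FC 1.28, SE 0.07, adjusted p = 1.2e-07), next to STEAP2 at 0.27. Its rise with the dual knockdown in LNCaP was smaller (log2FC 0.38, adjusted p = 0.0020). Around STEAP3, which fell in C4-2, 3 neighbours rose with R1881 by over 2-fold in both lines. They were C2orf76 (log2FC 1.51 in LNCaP and 1.37 in C4-2), DBI, which encodes an acyl-CoA-binding protein (1.88 and 1.10), and CFAP221 (3.39 and 2.07). CFAP221 had a mean of only 1.19 CPM. Around STEAP4, none of 5 tested neighbours passed at 2-fold in any of these comparisons, with log2FC values with R1881 from -0.64 to 0.61 in LNCaP and from -0.23 to 0.25 in C4-2. Around STEAP1B, EEF1A1P6 was lower with R1881 (log2FC -5.04 and -6.37, the values of the libraries that stood apart). SNHG26 rose with the dual knockdown in C4-2 (log2FC 1.04, SE 0.35, adjusted p = 0.042). SNHG26 had a mean of only 0.54 CPM and was removed by the filter in LNCaP. At such levels AC002064.1, CFAP221 and SNHG26 can pass the filter through the group where they are higher. Their p-values may therefore not be those of unselected genes.

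The other iron and copper genes were described from a list of 48, of which 41 were tested. With R1881 in LNCaP, 20 were higher and 8 lower, where 23.5% of all genes were higher and 23.2% lower, with a median log2FC of 0.20 against -0.04 over all genes. Heme breakdown and iron sensing (5 of 6 higher) and copper handling (6 of 10 higher, 2 lower) held most of the increases. HMOX1, the inducible heme oxygenase, went from 8.29 ± 2.50 to 19.7 ± 2.31 CPM (log2FC 1.21, adjusted p = 7.5e-06). SLC31A2, a copper transporter (log2FC 1.39), and HPX, the heme-binding hemopexin (1.23), also rose, from under 1 CPM. SLC31A2 was at 0.40 ± 0.27 CPM with vehicle and 1.15 ± 0.24 CPM with R1881. At so low a level it can pass the filter on low counts through the R1881 libraries. Its call may therefore not be that of an unselected gene. The largest falls were LRP1, a receptor for hemopexin with heme (log2FC -1.19, from 37.5 ± 5.59 to 16.4 ± 1.05 CPM), the metal importer SLC39A8 (-0.96) and the lipocalin receptor SLC22A17 (-0.78).

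With R1881 in C4-2, 6 of 41 were higher and 1 lower (median log2FC 0.08 against -0.02), where 17.1% of all genes were higher and 15.7% lower. The 3 largest rises were the copper chaperone COX17 (0.58, adjusted p = 0.0011), the constitutive heme oxygenase HMOX2 (0.52, adjusted p = 1.8e-04) and COMMD1 (0.49, adjusted p = 0.016), which acts in copper export. SLC22A17 fell by 0.71 (adjusted p = 0.0017). HMOX1 differed between the lines in its R1881 response by -1.27 (adjusted p = 8.6e-04), and SLC39A8 by 0.77 (adjusted p = 9.5e-06). Among the other reductases, none of 5 tested passed with R1881 in C4-2, and CYB561 and CYB561D2 were higher and CYB561A3 lower in LNCaP.

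With the dual knockdown, 8 of 41 were higher and 3 lower in LNCaP (median log2FC 0.15 against 0.00), and 12 higher and 4 lower in C4-2 (median 0.11 against 0.01). Of all genes, 8.27% were higher and 5.89% lower in LNCaP, and 12.7% higher and 10.8% lower in C4-2. HMOX1 rose in both lines (log2FC 0.67 and 0.60, adjusted p = 0.0065 and 0.0055). In LNCaP, BLVRB, a biliverdin reductase (0.54), and FTH1, the ferritin heavy chain (0.50), rose most after it, and FTH1 has many pseudogene copies that could take some of its reads. The copper pump ATP7A (-0.24) and the iron regulatory genes IREB2 (-0.24) and ACO1 (-0.18) fell. In C4-2, FRRS1, a ferric reductase, rose from 20.7 ± 0.353 to 37.2 ± 2.99 CPM (log2FC 0.84, adjusted p = 6.1e-05), and SCO1, a mitochondrial copper chaperone, rose by 0.61. The copper chaperone ATOX1 (-0.63), ACO1 (-0.31) and CYB561D1 (-0.29) fell there. Of the 8 tested genes of iron uptake, 5 rose with the dual knockdown in C4-2 and none passed in LNCaP, and 3 of the 8 had a higher log2FC in C4-2 by the interaction test, where 6.97% of all genes did.

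**Figure D5:**
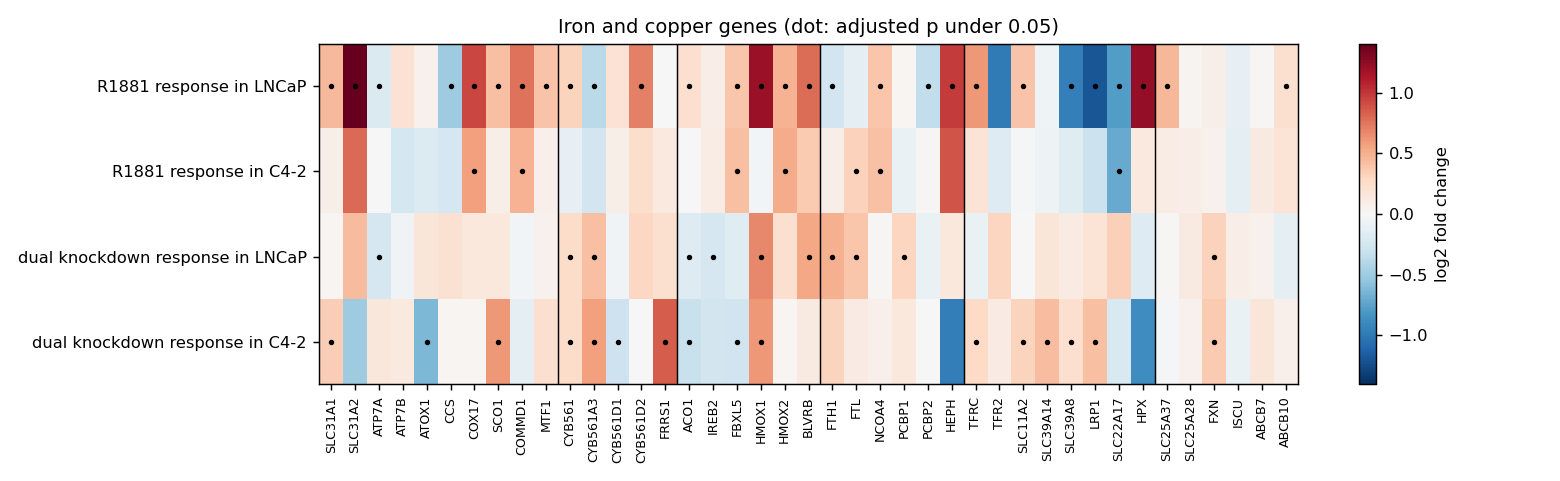
Log2 fold change (colour) of the 41 tested iron and copper genes in the R1881 and dual knockdown comparisons of both lines, with lines between the subgroups and a dot where the adjusted p was under 0.05. R1881 in LNCaP has the most dots (20 rises and 8 falls), and HMOX1 has a dot in both dual knockdown rows.

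The genes whose levels ran most like each member were found by the root mean square difference of centred log2 CPM over the 18 libraries, among 14901 genes with a mean of at least 1 CPM. For STEAP4 they were CCDC141 (0.555), HPGD, a prostaglandin dehydrogenase (0.66), and CHRNA2, an acetylcholine receptor subunit (0.729), where the median gene was at 3.43. CCDC141 had 0.062, 59.4 and 48.9 CPM in the 3 LNCaP groups (vehicle, R1881, dual knockdown) and 0.409, 12.1 and 11.8 CPM in those of C4-2. For STEAP1 they were YWHAZ, a 14-3-3 protein (0.112), TPT1 (0.129) and TXNDC9 (0.161). YWHAZ had 543, 826 and 822 CPM in LNCaP and 328, 563 and 716 CPM in C4-2. For STEAP2 they were ZFC3H1 (0.084), MON2 (0.090) and ZRANB2 (0.091). ZFC3H1, picked for its likeness to STEAP2 in these libraries, went from 49.2 to 40.5 CPM with the dual knockdown in LNCaP. In C4-2 it went from 38.9 to 52.2 CPM. For STEAP3 they were MNX1-AS1 (0.235), APC2 (0.242) and the G protein regulator RGS19 (0.243). For STEAP1B they were the histone gene HIST2H4A (0.537) and the pseudogenes CBWD4P (0.658) and HSP90AA2P (0.727), all highest on average in C4-2 with vehicle, the group with the library highest in pseudogenes.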

How the data were processed

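Read pairs of poly(A) RNA were trimmed by the authors (TrimGalore), aligned with STAR to GRCh38 and counted per Ensembl 83 gene with FeatureCounts 1.5.0-p1. The deposited counts are whole numbers per gene, and 43853 of 60675 genes had a count. Per the file headers, neither strand nor multimapping options were set. Libraries were grouped by title. Fits used R 4.3.3, edgeR 4.0.16 (TMM, filterByExpr with minimum count 10 and minimum total 15, quasi-likelihood F-test, 2-sided, Benjamini-Hochberg adjustment over all genes tested), limma 3.58.1 and DESeq2 1.42.0. Each line had its own fit of 9 libraries, and differences between the lines used all 18. CPM used TMM-scaled library sizes, and FPKM-like levels divided CPM by the exon length in the files. Tables and exact intervals were made in Python 3.11.15 (scipy 1.17.1, pandas 2.3.3, numpy 2.4.6), and plots with matplotlib 3.10.9. Symbols came from GENCODE 29 and promoters from RefSeq. The fits were tested on simulated data.

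The members, lists and tests were chosen with earlier results of these data known. The genes named were the 5 members, KDM1A, KDM7A, KLK3, TMPRSS2 and FKBP5, and STEAP2-AS1. From the iron and copper list, the 3 called genes with the largest rise and the 3 with the largest fall at 1 CPM or more were named per comparison of R1881 or dual knockdown, as were the 3 genes most like each member and neighbours within 500 kb called at 2-fold. The overlapping antisense genes, EEF1A1P6's counts, and the reductases and interactions of listed genes were named after their values were seen. Replicates of a group differed by more than counting error (chi-square per gene 2.41 to 16.9). The replicate numbers did not pair libraries (correlation of same-numbered deviations -0.081 to 0.129 over 12 pairs, 1 above 0.1). Alternatives were RLE factors, DESeq2, no filter, 10 counts in every library, a replicate block and each library left out. Others were thinning to the smallest library, only the groups compared, and rows summed (STEAP1B into STEAP1, and STEAP2-AS1 into STEAP2). Leaving out both libraries high in pseudogenes was added after seeing the data.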

Additional observations from a re-analysis of the deposited data

Results flagged for a closer look

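The R1881 response differed between the lines for 3 members by the interaction test of edgeR, with values of C4-2 minus LNCaP. The difference was -3.73 for STEAP4 (adjusted p = 0.0016), 0.58 for STEAP1 (adjusted p = 0.0071) and -0.73 for STEAP3 (adjusted p = 0.0042). STEAP4 passed the filter on low counts only through libraries with R1881, so its p-value is not that of an unselected gene. All 3 libraries of R1881 were above all 3 of vehicle for STEAP4 and STEAP1 in each line, and below for STEAP3 in C4-2. The dual knockdown response differed for STEAP2 by 0.58 (adjusted p = 0.0012) and for STEAP4 by 0.79 (adjusted p = 0.0038). STEAP2 was lower in every dual knockdown library of LNCaP and higher in every one of C4-2. KDM1A was at 51.6 ± 2.86 CPM in the dual knockdown of LNCaP and 16.4 ± 3.03 CPM in that of C4-2. A test of the gap between the farthest value of a group and the rest was not run, since each group held 3 libraries.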

How the results depend on the processing

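Of 816 values of single members under the alternatives, 783 kept their direction and side of the threshold, 17 passed only under the alternative, 10 lost the call and 6 changed direction. Leaving out 1 library in turn, STEAP1B ranged from -1.10 to 4.78 between the lines with vehicle (lowest without C4-2 siScr vehicle replicate 3, highest without LNCaP siScr vehicle replicate 1), from -2.69 to 3.18 in the R1881 interaction (lowest and highest without the same libraries in the other order) and from -0.72 to 0.084 in the dual knockdown interaction. STEAP1B was also at -0.59 in the R1881 interaction without both libraries high in pseudogenes. STEAP1 with the dual knockdown in LNCaP ranged from -0.060 to 0.029, with 0.019 without dual knockdown replicate 3. None of the values that changed direction was called.

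Requiring 10 counts in every library removed STEAP4 and STEAP1B, leaving 1 member called with R1881 in LNCaP (0 at 2-fold), 0 at 2-fold in C4-2, 1 with the dual knockdown in LNCaP, 1 at 2-fold between the lines with R1881, and 0 at 2-fold and 1 called for the R1881 and dual knockdown interactions. Without the filter, R1881 called 2 members at 2-fold in LNCaP, and 5 in all and 3 at 2-fold in C4-2. For R1881 in C4-2, RLE factors, DESeq2, thinning and the replicate block each gave 2 at 2-fold, and leaving out 1 library gave 1 to 3. In the main fit STEAP1 (log2FC 1.00) and STEAP3 (-0.96) both lay just under the limit. The cause of these changes was not tested. Leaving out 1 library gave 0 to 1 called with the dual knockdown in C4-2 and 1 to 2 at 2-fold between the lines with vehicle (2 without both libraries high in pseudogenes). Thinning left 1 called (0 at 2-fold) for the R1881 interaction and 1 for that of the dual knockdown. Over all genes, thinning lowered the number called from 8002 to 4931 and from 5571 to 3518 with R1881 in LNCaP and C4-2, from 2431 to 1140 and from 3983 to 2180 with the dual knockdown, and from 2615 to 1300 and from 2028 to 782 for the R1881 and dual knockdown interactions. Leaving out 1 library gave 839 to 2936 genes called with the dual knockdown in LNCaP, 2482 to 4668 in C4-2 and 1272 to 3538 for its interaction. The replicate block also called STEAP2 with R1881 in C4-2 (0.22, adjusted p = 0.028). It changed no other call by adjusted p, but moved the count at 2-fold there, as given above. The paired fit moved no count of all genes called by over 1.5 times, and 5 of 12 libraries compared had their highest correlation with their own number.

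STEAP4 with vehicle (0 to 5 counts) and STEAP1B (1 to 37 counts in 16 libraries) are limited by depth, so sizes of their folds are imprecise.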
